A study of Homo sapiens with 19 samples.

Results

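The SWI/SNF (BAF) chromatin remodeller was examined through 10 of the 44717 genes listed in the read-count tables. The genes were chosen by name and matched by symbol to a single Ensembl identifier each. They are the alternative ATPases SMARCA4 (BRG1) and SMARCA2 (BRM), the core subunits SMARCB1 (SNF5) and SMARCE1 (BAF57), the scaffold paralogs SMARCC1 (BAF155) and SMARCC2 (BAF170), the BAF60 paralogs SMARCD1, SMARCD2 and SMARCD3, and the actin-related subunit ACTL6A (BAF53A). All 10 passed the filter on low counts in every comparison.

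SWI/SNF complexes use the energy of ATP to slide or evict nucleosomes and so open promoters and enhancers to transcription factors. Each complex holds a single ATPase, either BRG1 or BRM, on a core of scaffold subunits that is completed with choices from paralog families and with accessory subunits that set the complex subtype. In the melanocyte lineage BRG1 is known as a cofactor of MITF and SOX10, the transcription factors that maintain pigment cell identity.

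Total RNA was sequenced from 501Mel, a human melanoma line, and Hermes 3A, a line of untransformed human melanocytes, each infected with lentiviral vectors that express a short hairpin RNA. In 501Mel the groups were shBRG1 (n = 3) with its scramble control shSCR1 (n = 3), and shMITF (n = 2) with its scramble control shSCR2 (n = 2). In Hermes 3A, shBRG1 (n = 3) and shMITF (n = 3) shared the scramble control shSCR (n = 3), which makes 19 samples in all. Each line was grown in its own medium, and that of Hermes 3A held TPA, cholera toxin and stem cell factor in addition to serum, so line and medium cannot be told apart. The shBRG1 vector targets SMARCA4 itself. The paper lists a single hairpin for BRG1 and a single hairpin for MITF. Effects of a hairpin beyond its target therefore cannot be told apart from those of the silencing. The labels do not say whether replicates were separate cultures, and p-values measure only the spread between the samples.

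Sequences are shown for the members that the results turn on, SMARCA4, its alternative SMARCA2 and the scaffold SMARCC2. SMARCA4 (ENSG00000127616) lies at chr19:10960825-11079426 on the plus strand and SMARCA2 (ENSG00000080503) at chr9:1980290-2193624 on the plus strand (GRCh38, GENCODE 29). SMARCC2 (ENSG00000139613) lies at chr12:56162983-56189567 on the minus strand of the same build. The primers with which the study measured SMARCA4 and SMARCC2 mRNA mark coding exons that the counts also cover. In the reference transcript of SMARCA4 the pair lies in exons 10 and 11 (chr19:10996270-10996289 and chr19:10996502-10996521), spans 139 bases of the transcript and is found in 30 of its 54 annotated transcripts. The SMARCC2 pair spans 253 bases from the junction of exons 4 and 5 to the junction of exons 7 and 8 and is found in 5 of 15 transcripts.
SMARCA4 forward: gcctacctcttgcagcagac
SMARCA4 reverse: gcgtctgtccttctgcattt
SMARCC2 forward: cttggtgcagaataattgcct
SMARCC2 reverse: cgtgtcgtaactgtcaggat

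The 250 bases before the first RefSeq start of SMARCA4 and before the first start of SMARCA2 (GRCh38.p14) are shown because SMARCA4 is the silenced gene, SMARCA2 its alternative, and MITF the other silenced gene. The letters CACGTG and CATGTG, which MITF is known to bind, and ACAAAG and ACAATG, which SOX proteins are known to bind, were searched on both strands. Neither window held any of them. A second SMARCA2 start, at chr9:2021695-2021944, had CATGTG in its window, given here in capitals. The third SMARCA2 start, at chr9:2157412-2157661, held CATGTG too, and the fourth SMARCA2 start and the second SMARCA4 start held none of the motifs. Among 35116 RefSeq windows of the same length, 6.34% held CACGTG, 9.42% CATGTG, 13.7% ACAAAG and 9.29% ACAATG. A match in these letters is a description of the sequence and not a binding site. The table held such windows for 7 of the 10 genes, and those of SMARCC1, SMARCC2 and ACTL6A were not analysed here.
SMARCA4 start, chr19:10960780-10961029, plus strand: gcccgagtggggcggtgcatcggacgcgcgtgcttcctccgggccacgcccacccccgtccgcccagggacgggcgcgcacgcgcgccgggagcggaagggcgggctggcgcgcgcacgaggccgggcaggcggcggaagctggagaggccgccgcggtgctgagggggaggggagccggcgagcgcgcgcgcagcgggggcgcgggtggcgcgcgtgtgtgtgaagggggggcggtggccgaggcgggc
SMARCA2 first start, chr9:2015097-2015346, plus strand: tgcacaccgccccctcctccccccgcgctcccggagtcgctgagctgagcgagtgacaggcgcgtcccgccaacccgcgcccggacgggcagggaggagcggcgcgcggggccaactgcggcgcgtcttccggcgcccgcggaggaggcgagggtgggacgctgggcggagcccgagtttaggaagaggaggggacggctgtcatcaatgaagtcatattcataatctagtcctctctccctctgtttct
SMARCA2 second start, chr9:2021695-2021944, plus strand: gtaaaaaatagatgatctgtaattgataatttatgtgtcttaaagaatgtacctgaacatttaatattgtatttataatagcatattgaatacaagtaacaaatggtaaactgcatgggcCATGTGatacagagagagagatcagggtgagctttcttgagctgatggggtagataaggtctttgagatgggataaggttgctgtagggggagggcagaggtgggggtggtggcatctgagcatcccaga

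Total counts lay between 29158502 and 78857900 per sample. The 7 melanocyte markers examined, including MLANA, PMEL and TYR, were above 1 CPM (counts scaled to library size) in all 7 groups. In 501Mel the summed marker level was 28645 to 31321 CPM with shSCR1 and 3026 to 3332 CPM with shBRG1, and in Hermes 3A it was 63830 to 65277 CPM with shSCR and 31389 to 32624 CPM with shBRG1. Of the fibroblast markers, COL1A2 was the main one found in Hermes 3A, where the list summed to 72.0 to 81.2 CPM with shSCR, against 3.63 to 5.04 CPM in 501Mel shSCR1. This list was higher with shBRG1 in 501Mel, at 15.8 to 19.3 CPM. In Hermes 3A it was higher with shBRG1, at 143 to 152 CPM, and with shMITF, at 113 to 224 CPM. With shMITF in 501Mel it overlapped its control, at 7.31 to 13.3 CPM against 7.54 to 8.13 CPM with shSCR2. Most of the Hermes 3A sums was COL1A2. LUM in Hermes 3A was 5.98 to 7.48 CPM with shSCR, 3.48 to 3.97 CPM with shBRG1 and 0.863 to 10.7 CPM with shMITF. The keratinocyte list summed to 26.8 to 65.6 CPM over all samples, and 1 of its 5 genes, KRT10, reached 1 CPM. KRT10 stood at 32.4 to 34.7 CPM with shSCR and at 44.2 to 65.2 CPM with shMITF in Hermes 3A. The part of other cells in the results was not tested. The spread between replicates differed widely between comparisons. The common biological coefficient of variation was 4.74% for shBRG1 in 501Mel and 5.75% for shBRG1 in Hermes 3A, against 17.4% and 21.6% for shMITF in 501Mel and Hermes 3A.

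Levels between genes were compared as length-normalised read counts (RPKM, reads per kilobase of exon and per unit of library size), with the sum of all annotated exons as the length. The libraries were normalized with duplex-specific nuclease, which compresses differences between abundant and rare transcripts, so ratios between genes may be compressed. The lowest and highest group means of SMARCA4 were 2.34 RPKM in 501Mel shBRG1 and 20.4 RPKM in 501Mel shSCR2, a ratio of 8.75. SMARCC1 varied least, by a ratio of 1.85 between its highest and lowest group means. In 501Mel shSCR1 the scale ran from SMARCD2 at 37.9 ± 1.70 RPKM (SD, n = 3), through ACTL6A at 23.7 ± 1.23, SMARCC1 at 17.4 ± 0.777 and SMARCC2 at 13.3 ± 0.328, to SMARCA2 at 2.29 ± 0.125 and SMARCE1 at 1.52 ± 0.0813. SMARCA4 at 11.6 ± 0.579 RPKM and SMARCD1 at 11.3 ± 0.703 RPKM were neighbours whose samples overlapped. In Hermes 3A shSCR SMARCC1 was highest at 23.8 ± 0.328 RPKM (n = 3), and the samples of SMARCD1 (18.0 ± 0.737), ACTL6A (16.6 ± 1.02) and SMARCA4 (15.5 ± 0.897) overlapped in turn. SMARCA2 (4.20 ± 0.146) and SMARCE1 (2.29 ± 0.0813) were again the lowest. With the longest coding transcript as the length, a choice made after the data were seen, SMARCD2 stayed first in 501Mel shSCR1, SMARCA4 became first in Hermes 3A shSCR at 42.2 RPKM, and SMARCA2 and SMARCE1 stayed lowest in both. In 501Mel shSCR1 SMARCA4 (31.5 RPKM) and SMARCC2 (26.7 RPKM) then lay above SMARCC1 (20.9 RPKM). The order between these extremes therefore depends on the length used. SMARCE1 shares 3697 exon bases (19.79%) with AC073508.2 on the same strand, which held 60 to 231 counts per sample. SMARCB1 shares 2923 (17.69%) with DERL3 on the other strand, which held 14 to 178 counts. The part of these overlaps in the levels was not tested.

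**Figure D1:**
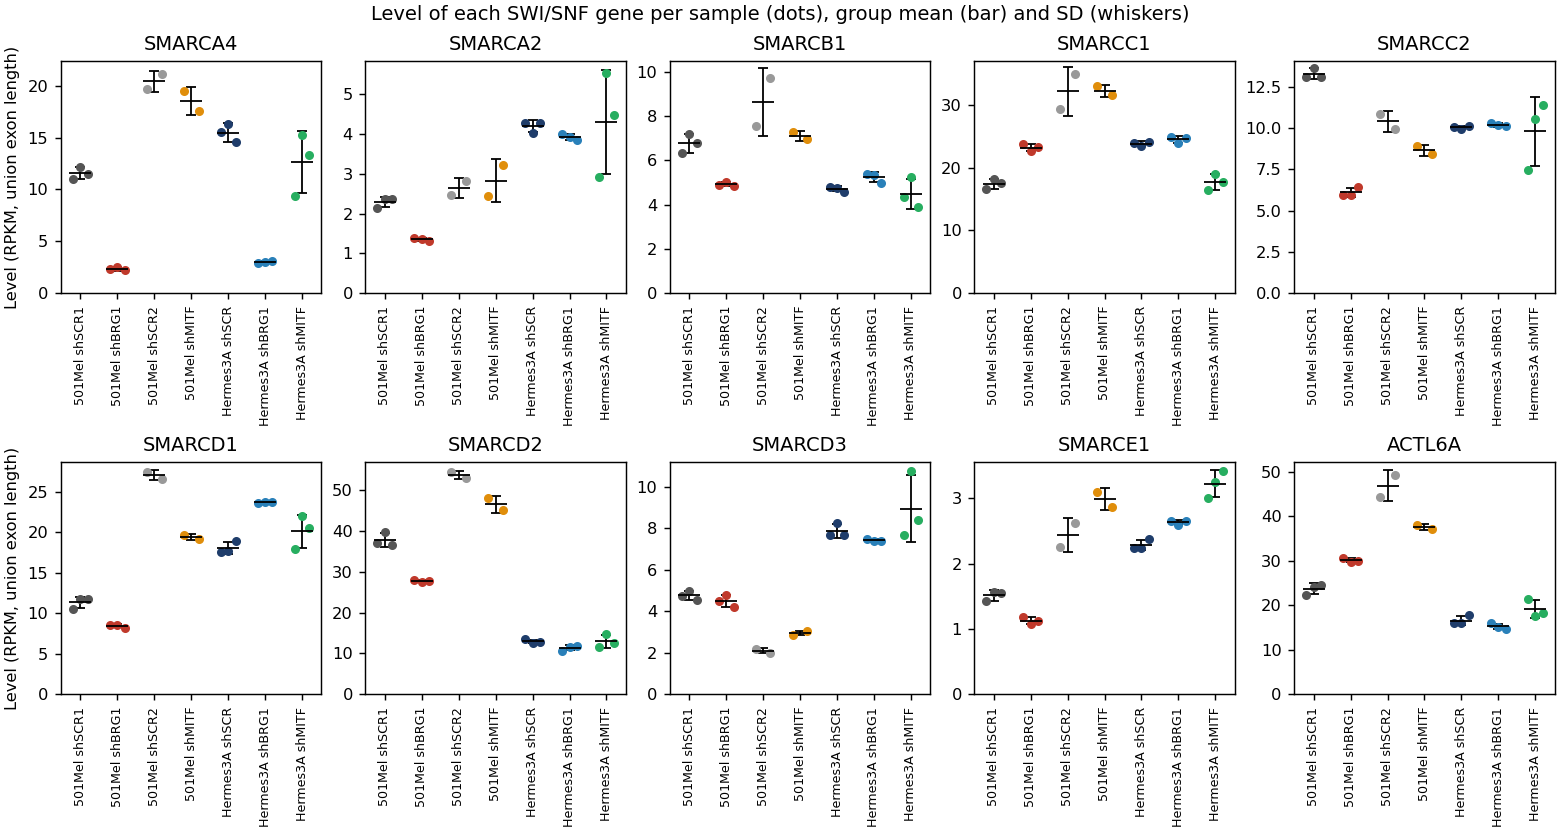
RPKM (vertical axes, from 0) of each of the 10 genes in every sample (dots) of the 7 groups, with the group mean as a bar and the SD as whiskers. The SMARCA4 samples of both shBRG1 groups lie between 2.19 and 3.13 RPKM, below all other samples of either line.

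The silenced gene itself was examined first. In 501Mel, SMARCA4 stood at 11.0, 12.2 and 11.5 RPKM in the shSCR1 samples and at 2.32, 2.50 and 2.19 RPKM in the shBRG1 samples. In Hermes 3A it stood at 15.6, 16.3 and 14.6 RPKM with shSCR and at 2.88, 3.02 and 3.13 RPKM with shBRG1. The groups were far apart in each line, which checks the labels of the 6 silenced samples. SMARCA4 fell by 2.36 on the log2 scale in 501Mel (SE 0.054, edgeR quasi-likelihood test, Benjamini-Hochberg adjusted p = 3.7e-21), to 19.5% of the control level. It fell by 2.38 in Hermes 3A (SE 0.048, adjusted p = 1.6e-24), to 19.2%. The change in SMARCA4 was larger in size than that of 90.2% of all genes tested in 501Mel and of 99.1% in Hermes 3A. The difference between the lines in this fall was -0.0067 on the log2 scale (95% interval -0.15 to 0.14, adjusted p = 0.96). It became 0.27 (adjusted p = 0.0015) with scaling by library size alone and 0.19 (adjusted p = 0.021) when only genes with at least 10 counts in every sample were kept.

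SMARCA2 (BRM), the ATPase that can take the place of BRG1, was not higher in either line after BRG1 silencing. In 501Mel it stood at 2.14, 2.36 and 2.36 RPKM with shSCR1 and at 1.38, 1.37 and 1.31 RPKM with shBRG1, with no overlap. This was a fall by 0.80 (SE 0.055, adjusted p = 3.3e-12), to 57.3% of the control. In Hermes 3A it stood at 4.28, 4.03 and 4.29 RPKM with shSCR and at 4.01, 3.92 and 3.85 RPKM with shBRG1. Here all silenced samples lay just under the control samples, and SMARCA2 fell by 0.11 (SE 0.044, adjusted p = 0.032). That call was lost, at -0.0078 and adjusted p = 0.89, with scaling by library size alone, and it was lost on leaving out shSCR replicate 1 (adjusted p = 0.12) or shBRG1 replicate 2 or 3 (adjusted p = 0.087 and 0.12). The summed ATPase level went from 13.8 ± 0.684 to 3.69 ± 0.187 RPKM in 501Mel and from 19.7 ± 0.777 to 6.94 ± 0.0429 RPKM in Hermes 3A (SD, n = 3 each).

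In 501Mel, BRG1 silencing moved all 10 genes past an adjusted p of 0.05, 8 lower and 2 higher, in a comparison where 80.3% of 20514 genes tested passed, 39.1% lower and 41.2% higher. Of all genes that passed, 51.3% were higher, and 65.9% with scaling by library size alone. The number passing is therefore near the background, and the sizes were below it. The median absolute log2 change over the 10 genes was 0.49, against 0.76 over all genes tested. Beside SMARCA4, 1 gene passed a log2 change of 1, as 39.1% of all genes tested did. That gene was SMARCC2, a scaffold subunit that pairs with SMARCC1. It stood at 13.1, 13.7 and 13.1 RPKM with shSCR1 and at 5.97, 5.94 and 6.42 RPKM with shBRG1, and fell by 1.17 (SE 0.049, adjusted p = 2.7e-16), to 44.4% of control. SMARCC2 shares 514 exon bases, 6.01% of its exon length, with MYL6 on the other strand. MYL6 held 6020 to 47766 counts per sample, and fell by 0.20 in this comparison. The strand setting of the counting is not given in the sources used here, and the part of MYL6 reads in the SMARCC2 counts was not tested.

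The other scaffold, SMARCC1, moved the opposite way in 501Mel. It stood at 16.6, 18.1 and 17.5 RPKM with shSCR1 and at 23.7, 22.6 and 23.3 RPKM with shBRG1, a rise of 0.36 (SE 0.046, adjusted p = 1.7e-07). ACTL6A, which forms an actin-like module on the ATPase, stood at 22.3, 24.1 and 24.7 RPKM with shSCR1 and at 30.8, 29.8 and 30.0 RPKM with shBRG1. It rose by 0.30 (SE 0.048, adjusted p = 4.9e-06), and no sample of either gene overlapped between groups. With shSCR1 and shSCR2 pooled as the control these became -0.018 for SMARCC1 (adjusted p = 0.96) and -0.14 for ACTL6A (adjusted p = 0.71). ACTL6A shares 124 exon bases (3.37%) with MRPL47 on the other strand, which fell by 0.75 in this comparison.

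The remaining core and BAF60 genes fell by smaller amounts in 501Mel. SMARCB1, the SNF5 tumour suppressor subunit, stood at 6.35, 7.21 and 6.77 RPKM with shSCR1 and at 4.89, 5.01 and 4.86 RPKM with shBRG1, a fall by 0.51 (SE 0.049, adjusted p = 1.5e-09). SMARCE1, a DNA-binding HMG-box subunit, stood at 1.42, 1.57 and 1.56 RPKM against 1.18, 1.07 and 1.12 RPKM and fell by 0.48 (SE 0.060, adjusted p = 1.4e-07). Both genes had every silenced sample below every control sample. SMARCD1 stood at 10.5, 11.8 and 11.7 RPKM against 8.58, 8.49 and 8.22 RPKM and fell by 0.47 (adjusted p = 1.6e-08). SMARCD2 stood at 37.1, 39.8 and 36.7 RPKM against 28.0, 27.6 and 27.9 RPKM and fell by 0.50 (adjusted p = 6.9e-10). These BAF60 genes, which link the core to transcription factors, were also clear of their controls. SMARCD3 stood at 4.75, 4.98 and 4.55 RPKM with shSCR1 and at 4.49, 4.76 and 4.19 RPKM with shBRG1, and the groups overlapped. Its fall by 0.14 (SE 0.060, adjusted p = 0.041) became 0.21 higher (adjusted p = 0.0025) with scaling by library size alone, and it was lost on leaving out shSCR1 replicate 2 (adjusted p = 0.097) or shBRG1 replicate 1 or 3 (adjusted p = 0.11 and 0.12). The trimmed-mean scaling placed the median of all genes 0.35 lower in this comparison than library size did, and all other directions held under both.

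In Hermes 3A, BRG1 silencing changed SMARCA4 most, and the 9 other members had log2 changes between -0.20 and 0.38. Of the 10 genes, 7 passed, 4 lower and 3 higher, where 56.9% of 17222 genes tested passed, 28.6% lower and 28.2% higher. Of all genes that passed, 49.6% were higher, and 63.5% with scaling by library size alone. A log2 change over 1 was passed by SMARCA4 among the members and by 9.26% of all genes. The median absolute log2 change was 0.14 over the members and 0.30 over all genes tested. SMARCD1 moved most after SMARCA4. It stood at 17.5, 17.7 and 18.9 RPKM with shSCR and at 23.6, 23.7 and 23.8 RPKM with shBRG1, with no overlap, and rose by 0.38 (SE 0.042, adjusted p = 9.5e-09). SMARCE1 stood at 2.23, 2.25 and 2.38 RPKM against 2.66, 2.60 and 2.65 RPKM and rose by 0.19 (SE 0.055, adjusted p = 0.0039). SMARCB1 stood at 4.82, 4.73 and 4.59 RPKM against 5.40, 5.33 and 4.97 RPKM and rose by 0.14 (SE 0.045, adjusted p = 0.011). All silenced samples of these 3 genes lay above the control samples. The SMARCB1 call was lost without shBRG1 replicate 1 or 2 (adjusted p = 0.11 and 0.087).

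SMARCD2 and ACTL6A were slightly lower in Hermes 3A after BRG1 silencing. SMARCD2 stood at 13.4, 12.7 and 12.8 RPKM with shSCR and at 10.7, 11.6 and 11.8 RPKM with shBRG1, and fell by 0.20 (SE 0.057, adjusted p = 0.0033). ACTL6A stood at 15.9, 16.1 and 17.8 RPKM against 15.9, 15.2 and 14.7 RPKM, with the lowest control and the highest silenced sample both at 15.9 RPKM, and fell by 0.14 (SE 0.052, adjusted p = 0.027). Both calls were lost with scaling by library size alone, at -0.098 (adjusted p = 0.15) and -0.031 (adjusted p = 0.64). The ACTL6A call was also lost without shSCR replicate 3 (adjusted p = 0.16) or shBRG1 replicate 2 or 3 (adjusted p = 0.072 and 0.15). SMARCC1 (0.023, 95% interval -0.057 to 0.10, adjusted p = 0.65) and SMARCC2 (0.0047, -0.080 to 0.090, adjusted p = 0.93) did not pass, nor did SMARCD3 (-0.10, -0.22 to 0.017, adjusted p = 0.14). By library size alone SMARCC1 and SMARCC2 passed, at 0.13 and 0.11 (adjusted p = 0.0064 and 0.024). With all 3 Hermes 3A groups in a single fit, which adds the wide spread of the shMITF samples, 2 of the 10 genes passed, SMARCA4 and SMARCD1. Over all genes that fit called 3802, against 9796 in the main fit. Without shBRG1 replicate 2 the member count was 4, and the fits with 1 sample left out called 8953 to 9968 genes.

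The effect of BRG1 silencing was compared between the lines directly by an interaction term, in which 57.9% of 21697 genes passed, 33.1% lower and 24.8% higher in 501Mel. Of the 10 genes 8 passed, 6 lower and 2 higher, and the plot of fold changes shows the columns side by side. SMARCC2 was the one past a log2 difference of 1, as 26.9% of all genes were. The change in SMARCC2 was lower in 501Mel by 1.21 (SE 0.064, adjusted p = 6.2e-19), and that in SMARCD1 by 0.88 (SE 0.067, adjusted p = 3.1e-14). SMARCC2 fell in 501Mel and did not pass in Hermes 3A. SMARCD1, SMARCB1 and SMARCE1 were lower after silencing in 501Mel and higher in Hermes 3A, with differences of -0.88, -0.68 and -0.70. For SMARCA2 the difference was -0.72 (adjusted p = 2.7e-11) and for SMARCD2 -0.32 (adjusted p = 6.9e-05). The SMARCD2 difference was -0.049 (adjusted p = 0.55) with scaling by library size alone and -0.13 (adjusted p = 0.074) where every sample had 10 counts or more. SMARCC1 and ACTL6A rose in 501Mel relative to Hermes 3A by 0.31 and 0.41 (adjusted p = 2.4e-05 and 5.2e-06). SMARCD3 had a difference of -0.067 (95% interval -0.23 to 0.10, adjusted p = 0.51), and 0.21 (adjusted p = 0.028) with scaling by library size alone.

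**Figure D2:**
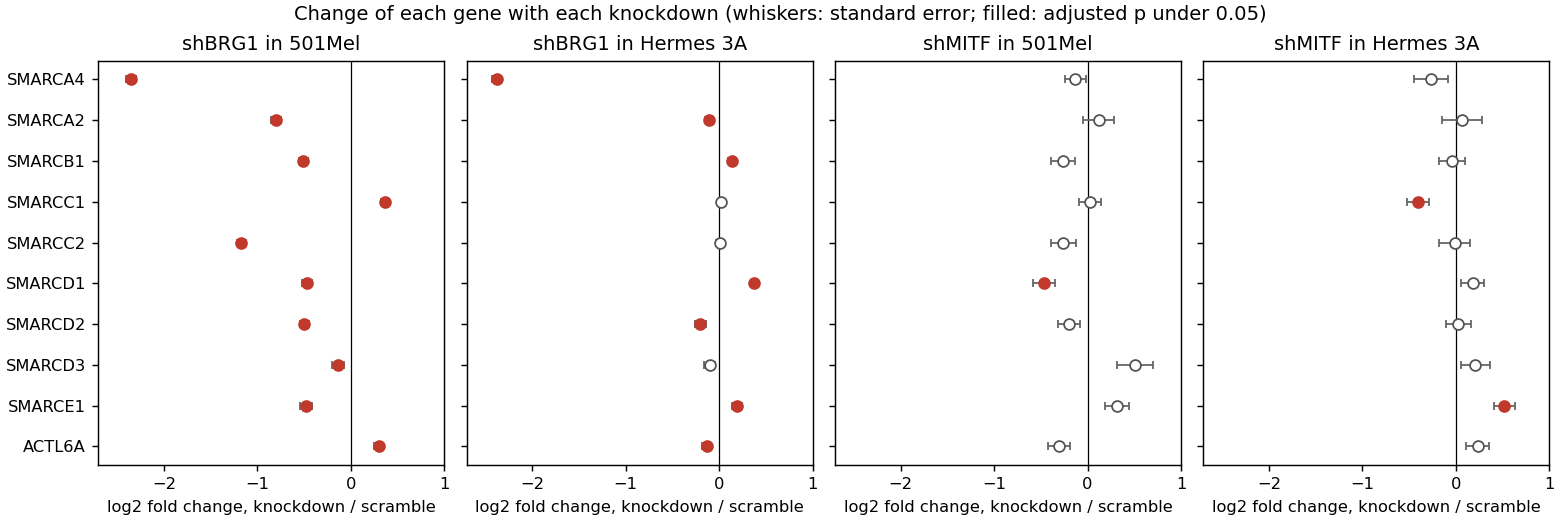
Log2 fold change of each of the 10 genes (rows) between knockdown and scramble samples (horizontal axis, on the log2 scale) for the 4 knockdown comparisons, with the standard error as whiskers and filled circles for an adjusted p under 0.05. SMARCA4 lies at -2.36 and -2.38 with shBRG1 in 501Mel and Hermes 3A, and the other 9 genes lie between -0.20 and 0.38 with shBRG1 in Hermes 3A, while SMARCC2 lies at -1.17 in 501Mel.

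The MITF knockdowns were a comparison in which SMARCA4 is not the target. SMARCA4 stood at 19.7 and 21.1 RPKM with shSCR2 and at 19.4 and 17.6 RPKM with shMITF in 501Mel, with a change of -0.13 (95% interval -0.39 to 0.13, adjusted p = 0.47). In Hermes 3A it stood at 9.41, 15.3 and 13.3 RPKM with shMITF, against the 14.6 to 16.3 RPKM of shSCR, with a change of -0.27 (95% interval -0.69 to 0.15, adjusted p = 0.36). The groups overlapped in Hermes 3A, where shMITF replicate 1 was the lowest sample. MITF itself fell by 1.06 in 501Mel and by 0.85 in Hermes 3A (adjusted p = 0.0014 and 0.019). SMARCA2 had changes of 0.12 (95% interval -0.26 to 0.49) in 501Mel and 0.063 (-0.42 to 0.54) in Hermes 3A, and its shMITF samples in Hermes 3A ran from 2.93 to 5.53 RPKM.

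In 501Mel, 1 of the 10 genes passed with shMITF, where 20.5% of 17701 genes tested passed, 10.5% lower and 10% higher. Of all genes that passed, 48.8% were higher, and 62.4% with scaling by library size alone. No member and 8.99% of all genes passed a log2 change of 1. SMARCD1 stood at 27.5 and 26.6 RPKM with shSCR2 and at 19.7 and 19.2 RPKM with shMITF, with the groups clear of each other, and fell by 0.47 (SE 0.12, adjusted p = 0.026). The call was lost with scaling by library size alone (-0.37, adjusted p = 0.064) and on leaving out shSCR2 replicate 1 (adjusted p = 0.095) or shMITF replicate 1 or 2 (adjusted p = 0.051 and 0.070). SMARCD3 (0.51, adjusted p = 0.094), SMARCE1 (0.31, adjusted p = 0.12) and ACTL6A (-0.31, adjusted p = 0.091) had an unadjusted p under 0.05 and did not pass. With all 501Mel groups in a single fit, 7 of the 10 genes passed. Over all genes that fit called 7731, against 3637 in the main fit.

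In Hermes 3A, 2 of the 10 genes passed with shMITF, where 17% of 16508 genes tested passed, 9.15% lower and 7.85% higher. Of all genes that passed, 46.2% were higher, and 62.5% with scaling by library size alone. No member and 7.39% of all genes passed a log2 change of 1. SMARCE1 stood at 2.23, 2.25 and 2.38 RPKM with shSCR and at 3.00, 3.26 and 3.42 RPKM with shMITF, with no overlap, and rose by 0.52 (SE 0.12, adjusted p = 0.019). Without any of the shSCR replicates its adjusted p was 0.10 to 0.14. SMARCC1 stood at 23.9, 23.4 and 24.1 RPKM against 16.4, 18.9 and 17.7 RPKM and fell by 0.41 (SE 0.12, adjusted p = 0.045). All shMITF samples of SMARCC1 lay below the controls, and its call was lost with scaling by library size alone (-0.31, adjusted p = 0.13), with no filter on low counts (adjusted p = 0.099), on leaving out any shSCR replicate (adjusted p = 0.16 to 0.19) and without shMITF replicate 3 (adjusted p = 0.063). Between the lines, the interaction test of edgeR called 0 of the 10 genes, with 3 at an unadjusted p under 0.05, where 2.99% of 19284 genes passed, 2.16% higher and 0.83% lower, and 2.64% had a log2 difference over 1, while DESeq2 called 2, SMARCD1 and ACTL6A.

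The 501Mel scramble groups differed from each other by as much as many of the knockdown effects. All 10 genes passed between shSCR2 and shSCR1, 8 of them higher with shSCR2, where 69.8% of 19056 genes tested passed, 35.3% higher and 34.5% lower. A log2 difference of 1 was passed by 2 members and by 33% of all genes. The SMARCA2 call (0.21, adjusted p = 0.031) was lost by library size alone (0.075, adjusted p = 0.37), with no filter (adjusted p = 0.082), where every sample had 10 counts or more (adjusted p = 0.22), and without shSCR1 replicate 1, 2 or 3 or shSCR2 replicate 2 (adjusted p = 0.15, 0.12, 0.071 and 0.051). SMARCA4 was 11.0 to 12.2 RPKM with shSCR1 and 19.7 to 21.1 RPKM with shSCR2, a difference of 0.83 (SE 0.062, adjusted p = 4.5e-06). SMARCD1 was 10.5 to 11.8 RPKM against 26.6 to 27.5 RPKM, a difference of 1.27 (SE 0.077, adjusted p = 1.7e-06). SMARCD3 went the other way, from 4.55 to 4.98 RPKM with shSCR1 down to 2.01 and 2.17 RPKM with shSCR2, a difference of -1.19 (SE 0.10, adjusted p = 1.1e-05). SMARCD3 shares 64 exon bases (1.23%) with CHPF2, which differed by -1.29. The labels give both as scramble groups and do not say how their cultures or libraries differed, so the shBRG1 and shMITF effects in 501Mel rest on different controls.

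The lines were compared on their scramble controls, shSCR1 for 501Mel and shSCR for Hermes 3A. All 10 genes passed, 4 higher and 6 lower in 501Mel, where 81.6% of 18731 genes passed, 41.4% higher and 40.2% lower. Of all genes that passed, 50.7% were higher, and 61.9% with scaling by library size alone. A log2 difference of 1 was passed by 1 member, SMARCD2, and by 41.4% of all genes. SMARCD2 stood at 36.7 to 39.8 RPKM in 501Mel and 12.7 to 13.4 RPKM in Hermes 3A. It was 3.00-fold higher in 501Mel, a log2 difference of 1.59 (SE 0.049, adjusted p = 1.5e-19). SMARCA2 was 2.14 to 2.36 RPKM in 501Mel and 4.03 to 4.29 RPKM in Hermes 3A, a difference of -0.84 (SE 0.053, adjusted p = 2.7e-13). SMARCD3 differed by -0.68, SMARCB1 by 0.56 and ACTL6A by 0.55, and all 3 kept their direction with shSCR2 as the 501Mel control, at -1.90, 0.89 and 1.52. SMARCD2 and SMARCA2 did so as well, at 2.08 and -0.65.

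For SMARCA4, SMARCC1, SMARCD1 and SMARCE1 the direction of the line difference depended on the control. SMARCA4 was -0.38 (adjusted p = 1.5e-07) with shSCR1 and 0.42 (adjusted p = 3.0e-04) with shSCR2. SMARCC1 was -0.41 and 0.45, SMARCD1 -0.64 and 0.61, and SMARCE1 -0.56 and 0.11, in the same order. SMARCC2 kept its direction but not its call, at 0.44 with shSCR1, and was 0.075 (adjusted p = 0.43) with shSCR2, and its neighbour MYL6 differed by -1.71 with shSCR1. In the pooled control fit, 5 of the 10 genes passed. Over all genes that fit called 9454, against 15283 in the main fit.

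**Figure D3:**
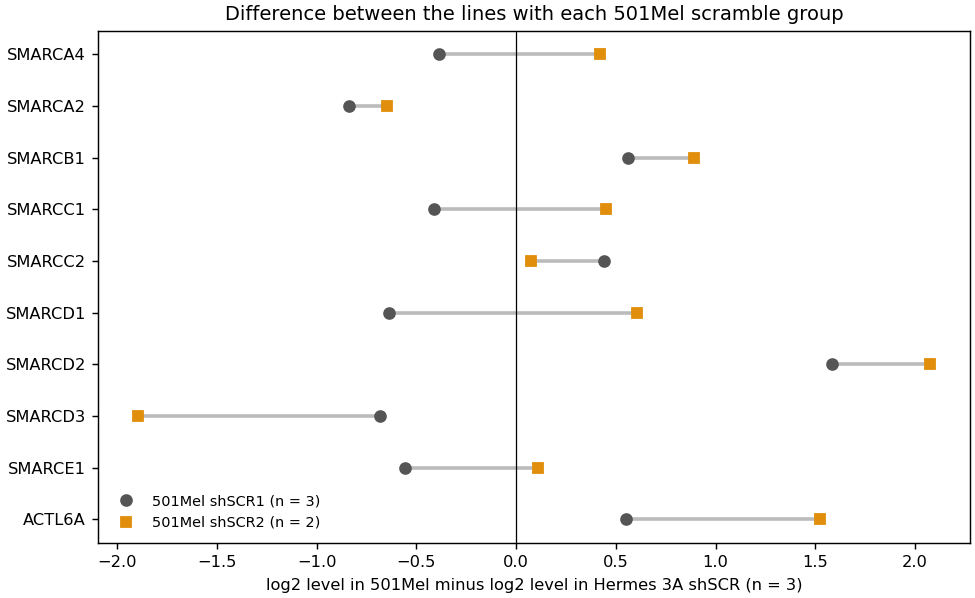
Log2 difference of each of the 10 genes between 501Mel and Hermes 3A scramble samples (horizontal axis), with shSCR1 (circles, n = 3) or shSCR2 (squares, n = 2) as the 501Mel group. SMARCA4, SMARCC1, SMARCD1 and SMARCE1 lie on opposite sides of 0 with the different controls.

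The make-up of the paralog families at the RNA level was described as the share of each paralog in the summed counts per kilobase of its family. These shares do not give the make-up of the protein complexes, and the nuclease normalization of the libraries may compress differences between paralogs. In 501Mel, SMARCA2 made up 16.5% ± 0.442 (SD, n = 3) of the ATPase total with shSCR1 and 36.7% ± 1.11 with shBRG1. In Hermes 3A the SMARCA2 share was 21.4% ± 1.50 with shSCR and 56.6% ± 1.51 with shBRG1, and so above the SMARCA4 share only in the silenced Hermes 3A group among the 7. The log2 SMARCA4/SMARCA2 ratio fell by 1.55 in 501Mel and by 2.27 in Hermes 3A. In each line all silenced samples lay below all control samples, and the exact two-sided permutation p was 0.1, the smallest that 3 against 3 samples allow (adjusted p = 0.17 over 12 tests), so this design cannot pass 0.05. The rule that names SMARCA4 as the silenced target fixes this direction.

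The scaffold pair had its widest shift in 501Mel with shBRG1. SMARCC2 made up 43.3% ± 0.672 of the pair with shSCR1 and 20.9% ± 0.777 with shBRG1, which gave an exact two-sided permutation p of 0.1 (adjusted p = 0.17). With shSCR2 the share was 24.6% ± 3.36 (n = 2), near the shBRG1 value, and with shMITF it was 21.2% ± 0.163. In Hermes 3A it was 29.7% ± 0.128 with shSCR and 29.4% ± 0.425 with shBRG1, with overlapping samples (exact permutation p = 0.4, adjusted p = 0.48). With shMITF in Hermes 3A the share was 35.4% ± 3.99, clear of shSCR, and the log2 SMARCC1/SMARCC2 ratio differed by -0.37 at an exact permutation p of 0.1 (adjusted p = 0.17). By the length of the longest coding transcript the shSCR1 and shBRG1 shares in 501Mel were 56.1% and 30.6%.

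Among the BAF60 genes SMARCD2 was the main form in 501Mel and SMARCD1 in Hermes 3A. With shSCR1 the shares of SMARCD1, SMARCD2 and SMARCD3 were 21.0% ± 1.03, 70.2% ± 0.809 and 8.82% ± 0.234. With shSCR they were 46.4% ± 1.42, 33.4% ± 1.24 and 20.2% ± 0.996. By the length of the longest coding transcript the shSCR shares were 39.9%, 28.1% and 32.0%, with SMARCD3 above SMARCD2. SMARCD1 rose to 55.8% ± 0.631 with shBRG1 in Hermes 3A, at an exact permutation p of 0.1 for its ratio to SMARCD2 (adjusted p = 0.17), and stayed at 20.7% ± 0.253 with shBRG1 in 501Mel (exact permutation p = 0.6, adjusted p = 0.65). In 501Mel SMARCD3 was 2.52% ± 0.0904 with shSCR2 (n = 2) and 4.28% ± 0.302 with shMITF (n = 2).

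**Figure D4:**
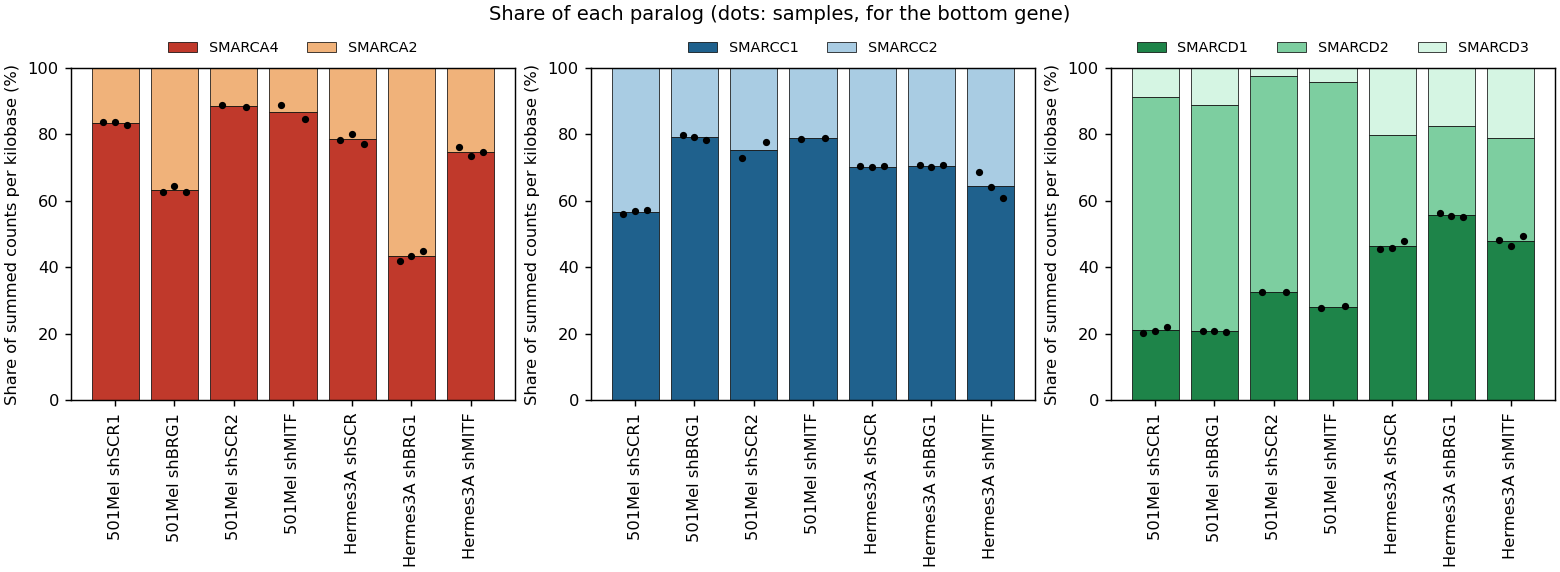
Share in percent (vertical axes) of each paralog in the summed counts per kilobase of its family, as the mean of each of the 7 groups, for the ATPases, the scaffold pair and the BAF60 genes. Dots give the samples for the bottom gene, and the SMARCA2 part of the ATPase bar is 36.7% in 501Mel shBRG1 and 56.6% in Hermes 3A shBRG1.

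A list of 21 accessory subunits, which set the BAF, PBAF and ncBAF subtypes, was counted in the same fits. With shBRG1 in 501Mel 18 of 19 tested passed, 8 higher and 10 lower, and 4 passed a log2 change of 1, against 80.3% and 39.1% of all genes tested. PBRM1, the bromodomain subunit of PBAF, fell by 2.34 (SE 0.054, adjusted p = 4.3e-21), from 218 to 243 CPM with shSCR1 to 43.6 to 47.9 CPM with shBRG1. PHF10, also of PBAF, fell by 1.71 and ARID1B, of BAF, by 1.52 (adjusted p = 7.0e-18 and 7.7e-18), while BICRA, of ncBAF, rose by 1.15 (adjusted p = 1.3e-14). With shMITF in 501Mel 7 of 18 tested passed, 2 higher and 5 lower, against 20.5% of all genes, and PBRM1 was the one past a log2 change of 1, at -1.48 (SE 0.16, adjusted p = 8.7e-04). With shBRG1 in Hermes 3A 11 of 18 passed, 6 higher and 5 lower, against 56.9% of all genes, and none had a log2 change over 1. PBRM1 there was -0.76. With shMITF in Hermes 3A 2 of 19 passed, PBRM1 (-0.67) and SS18 (0.45), against 17% of all genes.

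Between the lines 14 of 19 accessory genes passed, 9 higher and 5 lower in 501Mel, against 81.6% of all genes. SS18L1 was higher by 3.17 in 501Mel, and its paralog SS18, a BAF subunit, was lower by 1.15 (adjusted p = 1.7e-25 and 6.6e-16). BCL7B was lower by 1.43 and ACTB, the actin of the complex and of the cytoskeleton, by 1.50. In the test of the BRG1 effect between the lines 14 of 19 passed, against 57.9% of all genes, and PBRM1 was lower in 501Mel by 1.62, ARID1B by 1.44, BICRAL by 1.29 and PHF10 by 1.25, while DPF3 was higher by 1.53. In that of the MITF effect edgeR called 0 of 19, against 2.99% of all genes, with 4 at an unadjusted p under 0.05. Between the scramble groups 16 of 19 passed, against 69.8% of all genes, 12 higher and 4 lower with shSCR2, and BCL11A (1.62) and DPF3 (-1.74) were past a log2 difference of 1. BCL11B and ACTL6B did not pass the filter on low counts in any comparison.

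The genes most like SMARCA4 and SMARCA2 were those with the highest Pearson correlation of group mean log2 CPM over the 7 groups, among 11198 genes with a mean of at least 5 CPM. For SMARCA4 they included AP1G1 (r = 0.985), RXYLT1 (0.983), BUD13 (0.979) and SURF6 (0.976), and for SMARCA2 they were ATP6V0D1, CRADD, VPS35L, PRKD1 and TBCA (r from 0.995 to 0.996). The correlation between SMARCA4 and SMARCA2 was 0.392. The points are 7 group means that share line and control samples, so the values are given as a description.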

How the data were processed

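RNA was rRNA-depleted, made into cDNA libraries and normalized with duplex-specific nuclease, which compresses the differences between abundant and rare transcripts. For each of the 19 samples the authors deposited a table of unnormalized counts, with 1 row per Ensembl gene. The submitters' processing notes name CASAVA 1.8, TopHat 1.4.1, Bowtie 0.12.7 and build hg19. The counting tool, annotation and strand setting are not given in the sources used here. Tables list different genes by group, and each fit used the genes listed for all groups it included. The RPKM scaling used the 33031 genes listed in all 7 groups. A marker not listed in a group added nothing to the summed level of its list.

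Members and lists were chosen with earlier results of these data known. The named genes are the 10 members, accessory genes past a log2 change of 1, MITF beside a result and the 5 genes most like SMARCA4 and SMARCA2, of which 1 is not reported here. Genes that overlap a member were named after their values were seen. Each comparison was fitted with edgeR 4.0.16 (R 4.3.3): filterByExpr, TMM scaling, glmQLFit (robust) and glmQLFTest, with Benjamini-Hochberg adjustment over all genes tested. A gene passed at an adjusted p under 0.05. RPKM used TMM-scaled library sizes over all 19 samples and union exon lengths of GENCODE 29. Paralog ratios had exact two-sided permutation tests. The scripts were tested on simulated data. Replicates of every group differed beyond counting noise, and none was a duplicate. Alternatives were DESeq2 1.42.0, library-size scaling, other filters, other controls, samples left out, a replicate block and another gene length.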

Additional observations from a re-analysis of the deposited data

Results flagged for a closer look

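The effect of BRG1 silencing differed between 501Mel and Hermes 3A for 8 of the 10 genes by the interaction test of edgeR, which is what brought them here, where 57.9% of all genes tested passed. The log2 effect in 501Mel minus that in Hermes 3A was -1.21 for SMARCC2, -0.88 for SMARCD1, -0.72 for SMARCA2, -0.70 for SMARCE1, -0.68 for SMARCB1, -0.32 for SMARCD2, 0.31 for SMARCC1 and 0.41 for ACTL6A. The 501Mel side of each rests on shSCR1, which differed from shSCR2 in all 10 genes, where 69.8% of all genes passed. Its part in these differences was not tested.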

How the results depend on the processing

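The main limits are the 501Mel scramble groups, which differed from each other, the 2 samples of each MITF group in 501Mel and the spread of the Hermes 3A shMITF samples. The lowest member count was 361, and the part of depth in lost or gained calls was not tested. Of the member log2 changes under the alternatives, 906 kept their direction and side of the threshold. With the direction kept, 48 lost the call and 11 gained it. The other 45 changed sign, and calls lost or gained among these are not in the counts of 48 and 11. The cause of these changes was not tested.

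With shSCR1 and shSCR2 pooled as the control, shBRG1 in 501Mel gave -0.018 for SMARCC1, 0.27 for SMARCD3 and -0.14 for ACTL6A, and shMITF in 501Mel gave 0 members passing, with 0.29 for SMARCA4, 0.14 for SMARCD1, 0.072 for SMARCD2, -0.33 for SMARCD3 and 0.19 for ACTL6A. The line difference then had 5 of 10 members passing, with 0.015 for SMARCA4, 0.019 for SMARCC1 and 0.019 for SMARCD1. With shSCR2 alone it was 0.42 for SMARCA4, 0.45 for SMARCC1, 0.61 for SMARCD1 and 0.11 for SMARCE1. Over all genes the pooled control gave 10681 calls against 16464 for shBRG1 in 501Mel, 812 against 3637 for shMITF in 501Mel and 9454 against 15283 between the lines.

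With all groups of a line in a single fit, 7 members passed for shMITF in 501Mel, where SMARCC1 was -0.0018, and 2 for shBRG1 in Hermes 3A. Over all genes such fits gave 7731 calls for shMITF in 501Mel, 3802 against 9796 for shBRG1 in Hermes 3A and 4850 against 2806 for shMITF in Hermes 3A.

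With scaling by library size alone, SMARCD3 was 0.21 for shBRG1 in 501Mel and 0.0035 for shBRG1 in Hermes 3A. There shMITF had 0 members passing in 501Mel, where 3683 genes passed, and 1 in Hermes 3A, where 3007 genes passed. For shMITF in Hermes 3A SMARCB1 was then 0.059 and SMARCC2 0.092. With no filter 1 member passed for shMITF in Hermes 3A. The difference between the lines in the BRG1 effect on SMARCA4 was 0.27 by library size, 0.077 by DESeq2, 0.045 with no filter and 0.19 where every sample had 10 counts or more. For SMARCD3 it was 0.21 by library size, 0.015 by DESeq2 and 0.13 under that count minimum. DESeq2 called 2 members, and 1422 genes against 576, for the difference in the MITF effect.

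Leaving out 1 sample at a time gave 0 to 1 members for shMITF in 501Mel, 4 to 7 for shBRG1 in Hermes 3A, 0 to 2 for shMITF in Hermes 3A and 0 to 1 for the difference in the MITF effect. An arm left with 1 sample is assumed to vary like the others. For shMITF in 501Mel SMARCA2 ran from -0.13 to 0.32 and SMARCC1 from -0.065 to 0.082. For shBRG1 in Hermes 3A SMARCC2 ran from -0.012 to 0.0064. For shMITF in Hermes 3A SMARCA2 ran from -0.17 to 0.27, SMARCB1 from -0.18 to 0.056, SMARCC2 from -0.12 to 0.14 and SMARCD2 from -0.085 to 0.091. The difference in the BRG1 effect ran from -0.059 to 0.11 for SMARCA4 and from -0.12 to 0.041 for SMARCD3, and that in the MITF effect from -0.048 to 0.29 for SMARCA4 and from -0.18 to 0.27 for SMARCA2. The SMARCA4/SMARCA2 ratio ran from -0.51 to 0.040 for shMITF in 501Mel, and SMARCD1/SMARCD2 from -0.016 to 0.070 for shBRG1 in 501Mel. All-gene calls for shMITF in Hermes 3A were 763 to 912 without an shSCR replicate and 4324 without shMITF replicate 1.

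Deviations from the group means had r from -0.11 to 0.22 between samples of the same replicate number. Between samples of different numbers r ran from -0.27 to 0.19. With so few samples per group these values cannot decide whether the numbers pair the samples, and the main fits used no pairing. With the replicate block the members passing were 10 for shBRG1 in 501Mel, 1 for shMITF in 501Mel, 7 for shBRG1 and 1 for shMITF in Hermes 3A, where the SMARCC1 call was lost (-0.41, adjusted p = 0.11), and 8 and 0 for the differences between the lines. The block could not be estimated between the lines and was not run between the scramble groups.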
